A study of Mus musculus with 768 samples.

Results

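The 10 genes followed here are Atoh1, Pou4f3, Gfi1, Lhx3, Myo7a, Pvalb, Otof and Lhfpl5, of the programme of sensory hair cells, and beside them Ccer2 and Acbd7. Ccer2 and Acbd7 are on none of the lists of hair cell genes used below. All 10 were followed through single cells of mouse cochlear organoids. They are 10 of the 52636 genes listed in both deposited count tables, picked by symbol, and all 10 were found. The organoids grew from GER cells, enriched by flow cytometry from mice at postnatal day 2. The GER (greater epithelial ridge) is a transient strip of columnar cells in the neonatal cochlea, medial to the organ of Corti. All mice carried Sox2-GFP, Fgfr3-CreERT2 (an inducible Cre under Fgfr3 control) and the Cre reporter Ai14-tdTomato. All groups were grown in DMEM/F-12 with the N-2 and B-27 supplements, ampicillin, EGF, FGF2, IGF1, CHIR99021, valproic acid, 2-phospho-L-ascorbic acid and the TGFβ receptor inhibitor 616452. By the labels they differed only in culture time, which was 1, 3 or 7 days. Day 1 culture 1, day 3 culture 1 and day 7 cultures 1 to 4 are in the first deposited table, and the other cultures are in the second. Day and deposited table are therefore partly confounded. Each sample of the series is 1 hand-picked cell (SmartSeq2, full-length cDNA without molecular identifiers), and the replicate is the culture, with 3 cultures on day 1, 3 on day 3 and 5 on day 7. The labels do not say whether cultures came from separate animals, so p-values measure the spread between cultures.

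Hair cells are the mechanosensory cells of the inner ear. Atoh1 is the basic helix-loop-helix factor that starts their differentiation, and Pou4f3, Gfi1 and Lhx3 are transcription factors that act after it. Myo7a (an unconventional myosin) and Lhfpl5 (a subunit of the mechanotransduction complex) work in the hair bundle, Otof (otoferlin) is the calcium sensor of the ribbon synapse, and Pvalb (parvalbumin) is a calcium buffer. Acbd7 encodes a small protein of the acyl-CoA binding family. Ccer2 encodes a coiled-coil protein, and no role of it is described here.

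The promoters of 4 of these genes are shown because they hold the motif searched for (Lhfpl5 and Ccer2) or belong to the genes with the most reads outside co-expressing cells (Atoh1 and Acbd7). Each sequence is the 250 bases upstream of the annotated start from RefSeq (GRCm38.p6), 5′ to 3′ on the strand of the gene, and capitals mark CAGCTG, an E-box of the kind that basic helix-loop-helix factors bind.
Lhfpl5, chr17:28575469-28575718, + strand: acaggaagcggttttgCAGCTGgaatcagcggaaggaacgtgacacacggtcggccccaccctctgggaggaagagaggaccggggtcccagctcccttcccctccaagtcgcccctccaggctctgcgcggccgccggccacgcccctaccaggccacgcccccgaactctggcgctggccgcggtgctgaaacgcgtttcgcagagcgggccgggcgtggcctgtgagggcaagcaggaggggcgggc
Ccer2, chr7:28755924-28756173, + strand: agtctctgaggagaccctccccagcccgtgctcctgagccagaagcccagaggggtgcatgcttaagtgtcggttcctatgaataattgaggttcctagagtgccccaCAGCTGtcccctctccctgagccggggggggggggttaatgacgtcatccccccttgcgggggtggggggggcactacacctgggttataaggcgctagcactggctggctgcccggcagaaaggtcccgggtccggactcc
Atoh1, chr6:64728875-64729124, + strand: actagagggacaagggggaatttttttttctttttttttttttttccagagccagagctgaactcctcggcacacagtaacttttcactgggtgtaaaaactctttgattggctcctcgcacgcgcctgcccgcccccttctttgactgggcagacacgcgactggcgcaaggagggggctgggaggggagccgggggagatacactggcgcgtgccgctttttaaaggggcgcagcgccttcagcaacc
Acbd7, chr2:3335918-3336167, + strand: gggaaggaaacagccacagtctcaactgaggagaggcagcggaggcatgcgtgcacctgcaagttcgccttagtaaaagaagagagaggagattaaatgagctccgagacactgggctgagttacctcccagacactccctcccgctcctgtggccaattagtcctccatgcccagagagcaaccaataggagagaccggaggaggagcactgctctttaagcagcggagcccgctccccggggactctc
The promoter table held 8 of the 10 genes, with 12 entries, and not Pou4f3 and Otof. CAGCTG occurred in the entries of Lhfpl5 and Ccer2, 234 and 142 bases from the start, and in 13.0% of the 32851 promoters of the table. TAATTA, a homeodomain core, was in 4.84% of all promoters and AAATCAC, the Gfi1 core, in 2.75%, and neither was in a window of the 8 genes. Both strands were searched, none of these words contains another, and a match describes letters in this window only.

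Of 768 cells, 711 were retained (182, 228 and 301 for days 1, 3 and 7), from 37 to 86 per culture. Summed over retained cells a culture had 26391412 to 72483565 reads on genes, and the median cell had 798924. A cell was called co-expressing when it had at least 5 reads in each of at least 3 of the 10 genes, and 14 of the 711 cells (1.97%, exact 95% interval 1.08 to 3.28) met this. The other 697 cells serve as background throughout, and cells are named by the number in their labels. Intervals cover counting error only, since reads are PCR copies. Co-expressing cells had a median of 704248 reads and 7545 genes, and other cells 800031 reads and 6831 genes. All 14 had reads of the epithelial gene Epcam, from 12 to 1062. Doublets were not called in these hand-picked cells.

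Most cells had none of the transcripts. In 581 of the 711 cells no read of any of the 10 genes was found, 109 cells had reads of exactly 1 of them, and few cells lay between these and the co-expressing cells. Reads of at least 2 of the genes at 5 reads or more were seen in 19 cells, of at least 3 in 14 and of at least 4 in 10. The 14 cells were 3 cells of day 1 culture 1, 2, 3 and 5 cells of day 3 cultures 1, 2 and 3, and 1 cell of day 7 culture 4. Together they ranged from 38 reads of the 10 genes in cell 374 of day 3 culture 1 to 8770 in cell 686 of day 3 culture 3. Just inside the limit stood cell 556 of day 3 culture 2, with Ccer2 at 44 reads, Pvalb at 8 and Atoh1 at 5. Just outside stood cell 600 of the same culture, with Ccer2 at 60 reads and Pvalb at 14 but no other member. All 10 genes reached 5 reads in cell 598 of day 3 culture 2 and cell 757 of day 3 culture 3.

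**Figure D1:**
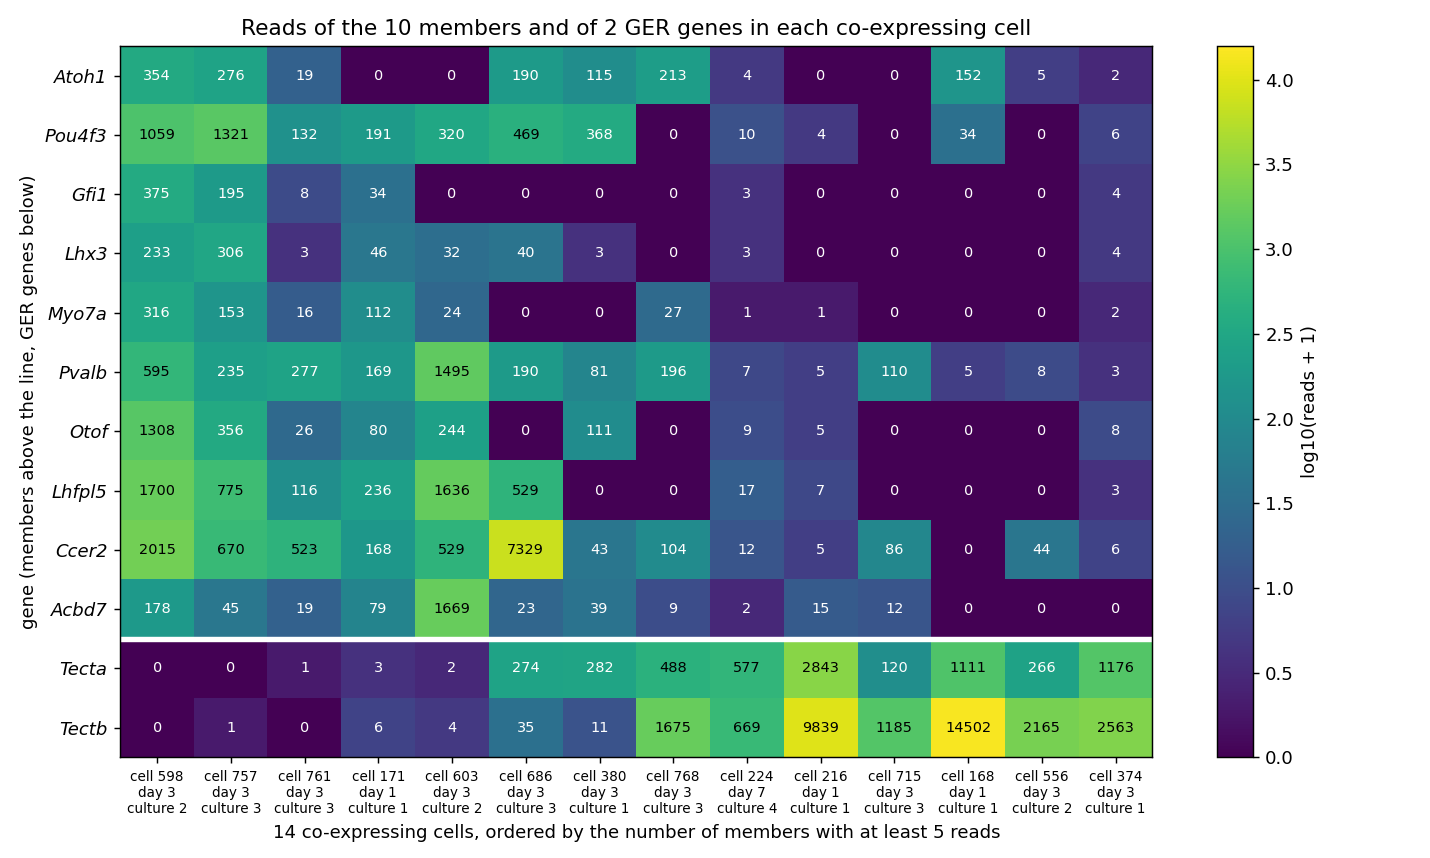
Reads of the 10 genes (rows above the white line) and of the GER genes Tecta and Tectb (below it) in each of the 14 co-expressing cells (columns, ordered by the number of members with at least 5 reads), with the read number in each tile and the colour on a log10(reads + 1) scale. The 5 cells on the left have 8 to 10 members and at most 3 Tecta reads, and the other 9 cells have at least 120.

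Of the transcription factors, Pou4f3 was read most. Pou4f3 (ENSMUSG00000024497.3, chromosome 18) had 3987 reads in all, and in the co-expressing cells 0 at the lowest, 83 at the median and 1321 at the highest. It reached 5 reads in 10 of the 14 cells, and cell 757 held 33.1% of its reads. Atoh1 (ENSMUSG00000073043.5, GRCm38 chromosome 6 from 64729125 to 64731245) had 1624 reads, with 0, 12 and 354 in the same order, and reached 5 reads in 8 cells. It was at 0 in 4 co-expressing cells. Cells 171 and 603, which had 9 and 8 other members, were among these 4. Gfi1 (ENSMUSG00000029275.18, chromosome 5 from 107716657 to 107726036) had 619 reads, with 375 in cell 598, 195 in cell 757, 34 in cell 171 and 8 or fewer elsewhere. Lhx3 (ENSMUSG00000026934.15, chromosome 2 from 26200212 to 26208289) had 671 reads, with 306 in cell 757, 233 in cell 598 and at most 46 in any other cell. Atoh1 and Pou4f3 were read together in 9 cells, which is 56.2% of the 16 cells with Atoh1 and 64.3% of the 14 cells with Pou4f3. Gfi1 was read in the fewest cells. Each of its 6 cells also had reads of Pou4f3, Lhx3, Myo7a, Pvalb, Otof, Lhfpl5 and Ccer2, and 5 of the 6 had Atoh1.

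The bundle and synapse genes were at 0 in several co-expressing cells, while Pvalb was read in all of them. Lhfpl5 (ENSMUSG00000062252.8, chromosome 17) had 5042 reads, of which 1700 were in cell 598 and 1636 in cell 603, and it was at 0 in 5 of the 14 cells. Myo7a (ENSMUSG00000030761.15, chromosome 7 from 98051060 to 98119524) had 675 reads, with 0, 1.5 and 316 as the lowest, median and highest of the co-expressing cells. The synaptic gene Otof (ENSMUSG00000062372.13, chromosome 5 from 30367062 to 30461932) had 2149 reads, 60.9% of them in cell 598, and was at 0 in 5 cells. Pvalb (ENSMUSG00000005716.16, chromosome 15 from 78191114 to 78206400) was the only member read in all 14 cells, at 3, 139.5 and 1495 reads. It reached 5 reads in 13 of them. Ccer2 (ENSMUSG00000096257.2, chromosome 7 from 28756174 to 28758968) had 11823 reads, of which 7329 were in cell 686, and was read in 13 of the 14 cells. Acbd7 (ENSMUSG00000026644.6, chromosome 2) had 2921 reads, 1669 of them in cell 603, and was read in 11 of the 14.

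Levels between genes were compared per length. As CPM per kilobase of exon, the summed co-expressing cells had 1169 for Ccer2, 418 for Acbd7, 346 for Pvalb, 224 for Lhfpl5 and 174 for Pou4f3. The level was 67.0 for Atoh1, 29.0 for Otof, 23.5 for Lhx3, 20.7 for Gfi1 and 8.13 for Myo7a. Single cells ran from 0, or from 3 reads for Pvalb, up to the highest values given above, and the order was not tested. Medians over the co-expressing cells gave another order. They were 196 for Pvalb, 138 for Ccer2, 65.1 for Pou4f3, 45.0 for Acbd7, 11.7 for Atoh1, 6.21 for Lhfpl5 and lower for the rest.

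Reads outside co-expressing cells were counted so that a gene did not choose its own cells: for each gene a cell counted as inside when at least 3 of the other 9 genes had at least 5 reads. Inside cells held all 619 reads of Gfi1, and none was seen in 697 outside cells, which allows a share of up to 0.430% of cells with a read when 3 counts are taken as the limit of a count of 0 (the exact 95% interval reaches 0.528%). They held 99.9% of the reads of Lhx3, 99.5% of those of Otof and of Lhfpl5, 97.2% of Pou4f3, 96.6% of Myo7a, 96.4% of Ccer2 and 95.8% of Pvalb. Atoh1 and Acbd7 were lower in this measure, with 72.2% of the Atoh1 reads and 71.1% of the Acbd7 reads inside. The median over the 10 genes was 96.9%. No test was made, since members chose the cells.

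The outside reads differed in kind between the genes. Acbd7 was spread thinly, with 843 reads over 88 of 698 outside cells (12.6%, exact 95% interval 10.2 to 15.3), a median of 6 reads in these and a highest of 67. It was the only member read in 83 of the 697 other cells. By culture, outside cells with an Acbd7 read made up 20.9% ± 11.3 on day 1 (SD, n = 3), 10.51% ± 5.998 on day 3 (n = 3) and 8.92% ± 4.99 on day 7 (n = 5), and the cultures of the days overlapped. Without day 3 culture 2, which holds cell 603, only 24.6% of the Acbd7 reads were inside. Ccer2 was read in 21 of 700 outside cells (3.00%, 1.87 to 4.55), with 425 reads and a highest of 86. Of the 451 outside reads of Atoh1, 173 were in cell 234 of day 7 culture 4, in which no other member was read. A further 152 were in cell 168 of day 1 culture 1, which had Pou4f3 at 34 reads and Pvalb at 5 beside it and so missed 3 other members. Atoh1 was read in 8 of 699 outside cells (1.14%, 0.495 to 2.24). Over the 5 genes Lhx3, Myo7a, Otof, Lhfpl5 and Pou4f3 at most 5 outside cells had a read of each, and Pvalb had 8. For scale, 30 markers of other lineages had a read in a median of 4.52% of the other cells, from 0 to 97.1% (Gata3, a gene that inner ear epithelium also uses).

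**Figure D2:**
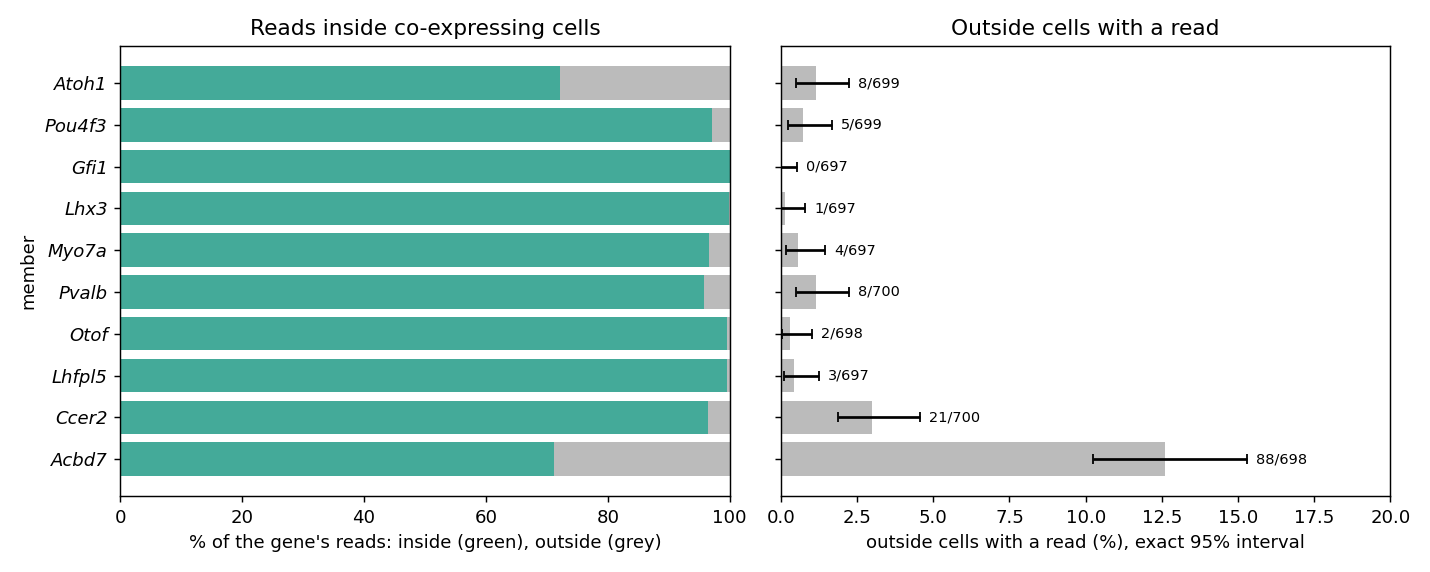
Left, percent of each gene's reads inside (green) and outside (grey) cells with at least 3 of the other 9 members; right, percent of outside cells with at least 1 read, with exact 95% intervals and the numbers of cells. Acbd7 stands apart with 88 of 698 outside cells, and Gfi1 has 0 of 697.

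The cells with the most members had almost no reads of Tecta, which encodes the tectorial membrane protein that GER cells secrete. The 5 cells with at least 8 members (598, 603, 757, 761 and 171, from 3 cultures) had 0, 2, 0, 1 and 3 Tecta reads. Their Tectb reads were 0 to 6. The other 9 co-expressing cells had 120 to 2843 Tecta reads, with a median of 488. Of the 697 other cells, 2 (0.287%) had 3 or fewer, and the median was 1100. The groups did not overlap, but the line at 8 members was set after the values were seen, so there is no test. Summed over 12 supporting cell genes, the 5 cells had 119 to 314 CPM (reads in each 1000000 reads on genes of that cell) and the 9 cells 919.7 to 3207. Other cells had 32.1 to 10403 CPM, with a median of 2225, so they overlapped both groups. The 53 hair cell genes of the lists that are not members summed to 3364 to 23123 CPM in the 5 cells and 229.9 to 6240 in the 9 cells. In other cells they summed to 8.75 to 12269 CPM, with a median of 501.7, so single other cells overlapped both groups. Member reads and GER reads also stood in 1 cell: cell 686 had 8770 member reads and 274 Tecta reads, and cell 168 had 14502 reads of Tectb beside Atoh1 at 152. Proliferation genes were read in some of the 5 cells. Cells 757 and 761 had reads of all 6 listed genes (Tpx2, Mki67, Birc5, Top2a, Ccnb2 and Cdk1), at 3010 and 1157 CPM in sum, while cell 603 had none. Other cells ran from 0 to 5558 CPM, with a median of 161.7.

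**Figure D3:**
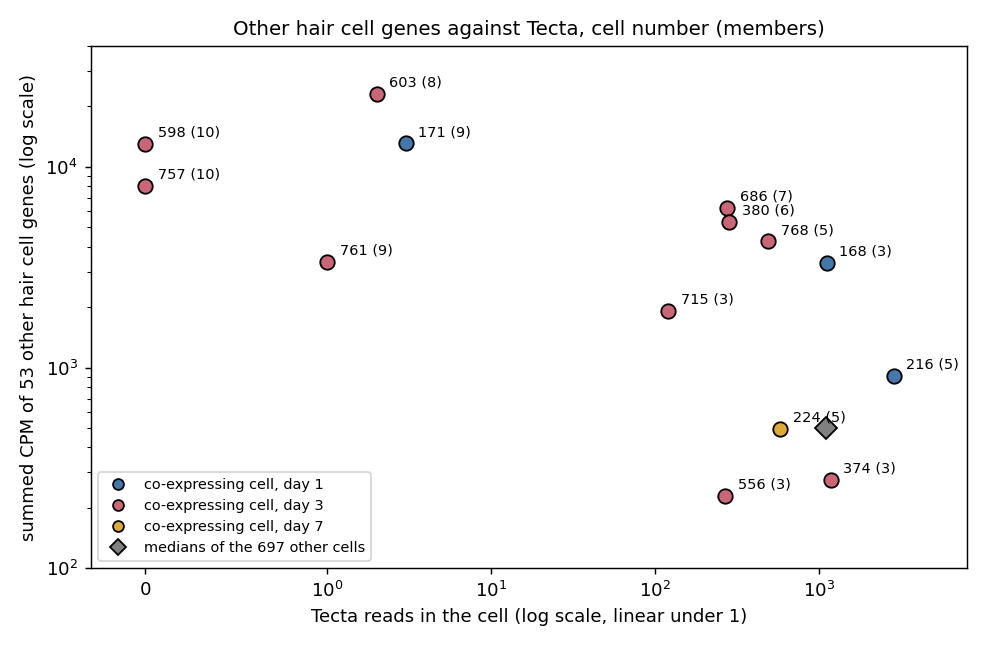
Summed CPM of the 53 other hair cell genes (vertical, log scale) against Tecta reads (horizontal, log scale, linear under 1) in the 14 co-expressing cells, each marked with its cell number and, in brackets, its number of members with at least 5 reads; the diamond marks the medians of the 697 other cells. The 5 cells with 8 or more members lie at 0 to 3 Tecta reads, and 4 cells lie near or below the level of other cells.

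The co-expressing cells with few member reads also had few reads of other hair cell genes. Cells 216, 224, 374 and 556 had 42, 68, 38 and 57 member reads, and the other 10 co-expressing cells at least 191. In these 4 the other hair cell genes summed to 229.9 to 910.5 CPM, against 1921 to 23123 in the 10. Cell 224, the only co-expressing cell of day 7, had a read of all 10 members, at 1 to 17 reads each. Each of these was 0.316% to 1.29% of the number in cell 598, which was chosen for the comparison after the values were seen. A further 6 genes (Thsd7b, Tmem255b, Fgf8, Barhl1, Chrna9 and Calb2) had a read in cell 224 as well, at 0.425% to 2.44% of the number in cell 598. In cell 374, with 9 members read, the share of the member reads ran up to 1.72%. Cells 224 and 374 are from another deposited table than cell 598, and the cause of the low reads was not tested.

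Genes outside the 10 were compared between co-expressing and other cells of the same culture, in the 5 cultures that hold both (3, 2, 3, 5 and 1 co-expressing cells). In edgeR, 3 of 12974 genes (0.0231%) were called at an adjusted p under 0.05, all higher in co-expressing cells, and 1685 had an unadjusted p under 0.05. Thsd7b, a thrombospondin domain gene (ENSMUSG00000042581.14), was read in 12 of the 14 co-expressing cells and 11 of the 697 other cells. It had 224.6 ± 178.8 CPM in co-expressing and 0.0572 ± 0.0578 CPM in other cells (SD, n = 5 cultures). In edgeR its log2 ratio was 11.50 with an SE of 0.93 and an adjusted p of 0.00338. Fgf8, a secreted signal of inner hair cells, had 93.7 ± 141.8 against 0.0223 ± 0.0388 CPM, and 99.2% of its reads lay in the 14 cells. Its log2 ratio was 11.18 (SE 1.05) at an adjusted p of 0.00432 in edgeR. Tmem255b, which encodes a transmembrane protein, had 418.1 ± 312.2 against 0.765 ± 1.01 CPM, a log2 ratio of 9.49 (SE 0.87) at the same adjusted p. All 3 were higher in 5 of 5 cultures. In day 7 culture 4 this rests on cell 224 alone, whose reads of the 3 genes were within 0.425% to 2.44% of those in cell 598. Because a gene could pass the filter on low counts through the co-expressing cells alone, the direction of these calls is partly fixed by the filter. Without day 3 culture 2 only Thsd7b was called (edgeR adjusted p 0.391 for Fgf8 and 0.0806 for Tmem255b), and the highest adjusted p among the alternatives was 0.169 for Thsd7b, 0.391 for Fgf8 and 0.0806 for Tmem255b (lowest 2.3e-45, 4.1e-23 and 3.2e-30, with DESeq2). The call of Thsd7b was lost when at least 4 or at least 2 members were asked for (adjusted p 0.169 and 0.0812). With the DESeq2 Wald test 1485 genes (11.4%) were called, 204 of them higher (1.57% of all). In 10 co-expressing cells with at least 100 member reads, an alternative added after the data were seen, 36 were called, 25 higher.

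Most other hair cell genes had higher fitted levels in co-expressing cells, and whether they passed depended on the test. Of the 53 on the lists 29 were tested, with 23 fitted higher and 6 lower. A gene could pass the filter on low counts through the co-expressing cells alone, so the counts of higher genes are partly fixed by the filter. In edgeR none was called, and 13 were higher at an unadjusted p under 0.05, where 1.08% of all genes were. DESeq2 called 14 of the 29, all higher, among them Barhl1, Hes6, Rasd2, Cdh23, Clrn1, Grxcr2, Calb1, Calb2 and Chrna9. In edgeR 8 of 31 were called without day 7 culture 4, 7 of 28 with at least 100 member reads and 10 of 29 without a culture term, all higher, and 0 in the other alternatives. Hes6, Rasd2, Calb2 and Chrna9 were among those called both without that culture and with at least 100 member reads. The median log2 fold change of the 29 tested genes was 2.45, against -0.87 over all genes tested, 18.5% of which were higher. The medians were 3.10 for transcription and early differentiation, 2.70 for bundle and mechanotransduction and 2.27 for synapse, calcium and excitability. Among early genes, the transcription factor Barhl1 had 209 reads in 8 co-expressing cells and 1 read elsewhere, the Hes-family factor Hes6 had a log2 fold change of 2.58 (SE 0.56) and Rasd2, a small GTPase, one of 3.62 (SE 1.13). Their edgeR adjusted p was 0.231 each. Among bundle genes the tip-link cadherin Cdh23 was read in 7 of 14 against 4 of 697 cells and Clrn1, an Usher syndrome gene, in 10 against 4. Grxcr2, needed for stereocilia, was read in 5 against 1. In edgeR all 3 had an adjusted p of 0.231. Loxhd1, Grxcr1, Myo3a and Xirp2 had 346, 139, 153 and 381 reads in co-expressing cells and 0 in the others, and were not tested by the filter. Of the calcium and synapse genes, calretinin (Calb2) had the smallest edgeR adjusted p, 0.0815, at a log2 ratio of 6.62 (SE 0.98). Calbindin (Calb1) had 7.82 (SE 1.67) and the acetylcholine receptor subunit Chrna9, read in 6 of 14 against 1 of 697 cells, 12.51 (SE 1.53), both at 0.231. Tmc1 and Tmc2, the transduction channel genes, Slc26a5 (prestin, of outer hair cells) and Nhlh1 had 0 reads in all 711 cells.

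Barhl1, Hes6, Mgat5b, Cdh23, Clrn1, Grxcr2, Triobp, Calb1, Calb2 and Chrna9, 10 of the 29 genes, had a higher CPM in the co-expressing cells of each of the 5 cultures, where 1.6% of all genes did. This count is not a test, since a gene could pass the filter on low counts through the co-expressing cells alone. Barhl1, Cdh23, Grxcr2 and Chrna9 passed in this way, with means of 0 to 0.0104 CPM in the other cells, and their place among the 10 follows from it. Clrn1 and Mgat5b were low there as well, with means of 0.596 and 0.609 CPM from 4 and 6 of 697 cells, and may depend on the filter in the same way. As a description the class can be called hair-cell-like, with day 7 culture 4 as an exception in sum. That culture had a single co-expressing cell, cell 224. Its reads of Barhl1, Chrna9 and Calb2 were within 0.425% to 2.44% of those in cell 598, so their higher values there rest on few reads. Cell 224 had 404.3 CPM of the 29 genes against 562.7 in the other cells of the culture, with 11 of 29 higher. In the other 4 cultures the sum was 3.66 to 12.5 times higher. The GER list had a median log2 fold change of -2.14 (11 of 12 lower, with Calb1, which is on both lists, the higher one) and the supporting cell list one of -0.98 (8 of 10 lower), the latter near the -0.87 of all genes. In edgeR with culture as a term no gene of either list was called, with 5 and 1 lower and 1 and 0 higher at an unadjusted p under 0.05. DESeq2 called 5 of the GER list, Calb1 as higher and 4 as lower, with Epyc (adjusted p 2.7e-11) and Tecta (0.0286) among the 4, where it called 9.87% of all genes lower, and 0 of the supporting cell list. Epyc, a GER proteoglycan, was read in 0 of 14 and 22.4% of other cells. Tecta had -1.76 (SE 0.39) and Sparcl1 -1.35 (SE 0.48), at edgeR adjusted p of 0.231 and 0.274, and Hey2 had -4.00 and Gjb2 -1.10 (adjusted p 0.459 and 0.496). The last 2 turned, Hey2 to 0.31 with at least 2 members and Gjb2 to 0.012 without a culture term. The proliferation list had a median of -0.10 (3 of 6 higher).

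No marker of another cell type was called in edgeR with culture as a term. Of 8 neuron genes 6 were tested, of which 1 was higher and 2 were lower at an unadjusted p under 0.05, and DESeq2 called 1, Nefl (adjusted p 7.5e-05). Their sum was 194 to 1673 CPM in co-expressing cells (median 628.3) and 0 to 2569 in others (median 321.5), with Prph at 0 and Tubb3 in 1 of the 14 cells, while Nefl was in 11 (5.44 as log2, SE 1.51, at an edgeR adjusted p of 0.231) and Gata3 in all 14. The part of these genes in the results was not tested. Glial genes summed to 0 to 342.4 and 0 to 1146 CPM, in co-expressing and other cells, and Erbb3, Egr2 and Sox10 had lower fitted levels that did not pass the test in edgeR. No glial gene had an unadjusted p under 0.05 in edgeR, DESeq2 called Erbb3 (adjusted p 0.0205), and Egr2 turned to 0.45 without a culture term. Mesenchymal genes summed to at most 71.9 CPM, with Col1a2, Col3a1, Pou3f4 and Tbx18 at 0, and Pdgfra (85 reads) and Col1a1 (8 reads) in 2 co-expressing cells each. None of these 6 was tested. Melanocyte genes reached 46.3 CPM, all from Pmel, with Dct, Tyr and Mlana at 0. Immune and blood genes reached 22.6 CPM, all from Cd68 (17 reads in 2 co-expressing cells), with Ptprc, Csf1r, Lyz2, Hbb-bs and Hba-a1 at 0.

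The genes most alike to the 10 in their pattern over cells were found by Pearson correlation with the members' mean log2(CPM + 1) over the 711 cells, which share libraries and depth, as a description. Of 13126 genes with at least 10 reads in 5 cells, the first were Fgf8 (r 0.899), Tcerg1l (0.886), Cplx1 (0.886) and Barhl1 (0.867). Cdh23, Clrn1, Chrna9, Thsd7b, Tmem255b, Dlk2 and Dll3 were among the next, with r from 0.821 down to 0.764. Tcerg1l had 393 reads in 7 cells, all 7 co-expressing. Cplx1 (complexin 1, of the synaptic vesicle machinery) had 98.97% of its 292 reads in co-expressing cells. The members' mean is high mainly in these cells, so genes ranked by it lie there by selection. Against the mean of the other 9, Lhx3 had the highest r among the members (0.915) and Acbd7 the lowest (0.490), with Atoh1 next (0.599).

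Culture time was examined first by the share of co-expressing cells. It was 5.66% (3 of 53), 0% (0 of 86) and 0% (0 of 43) in the day 1 cultures. In the day 3 cultures it was 2.35% (2 of 85), 4.29% (3 of 70) and 6.85% (5 of 73), and in the day 7 cultures it was 1.28% (1 of 78) in culture 4 and 0% in the other 4. Day 3 was the only day with such cells in every culture, each of them above each day 7 culture, and day 1 rests on culture 1. Over the cultures of a day the mean was 1.89% ± 3.27 for day 1 (SD, n = 3), 4.50% ± 2.26 for day 3 (n = 3) and 0.256% ± 0.573 for day 7 (n = 5). The difference of day 7 from day 3 was -4.24 percentage points, with a two-sided exact permutation p of 0.0357 (0.107 after Benjamini-Hochberg adjustment over 3 pairs, and 0.107 to 0.286 under the alternatives). The unadjusted value is the smallest that this two-sided test can give for 5 cultures against 3. No outcome could have brought the adjusted p under 0.05, so the adjusted p cannot decide this difference. Day 3 was 2.61 points above day 1 (exact permutation p 0.3, adjusted 0.45), where 3 cultures against 3 cannot go below 0.1, and the difference of day 7 from day 1 was -1.63 points (exact permutation p 0.75, adjusted 0.75). Within the first deposited table the day 1 culture was above the day 3 culture (5.66% and 2.35%), and within the second both day 3 cultures (4.29% and 6.85%) were above both day 1 cultures (0%), with too few cultures for a test in either. A culture with 0 such cells still allows shares of up to 3.49% to 8.11% by the limit of 3 counts, and its exact 95% interval reaches 4.199% to 9.49%. Cells thinned to 200000 reads gave 1 of 175, 7 of 222 and 0 of 298 co-expressing cells on days 1, 3 and 7.

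**Figure D4:**
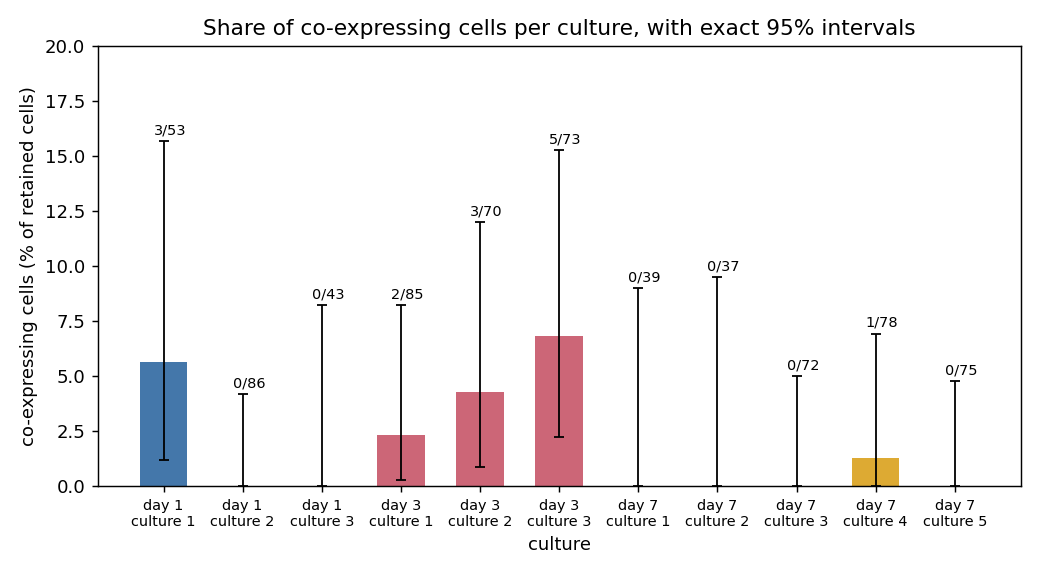
Percent of retained cells that were co-expressing in each of the 11 cultures (bars, with the numbers of cells), with exact 95% Clopper-Pearson intervals for counting error. All 3 day 3 cultures have 2 to 5 such cells, and 6 of the 8 cultures of days 1 and 7 have 0.

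Levels per culture were summed over its cells and scaled to CPM (reads in each 1000000). Pou4f3 had 6.65, 0 and 0 CPM in day 1 cultures 1 to 3 and 6.76, 27.3 and 37.3 in day 3 cultures 1 to 3. On day 7 it had 0.147 CPM in culture 4 and 0 in the other 4. Day 3 did not overlap either of the other days. Pvalb had 5.20, 0 and 0 CPM on day 1, 1.37, 41.3 and 19.6 on day 3, and on day 7 0.103 in culture 4, 0.0330 in culture 2 and 0 in the others. Only day 1 culture 1 overlapped the day 3 range. Atoh1 had 4.42, 0.585 and 0 CPM on day 1, 1.87, 7.02 and 13.6 on day 3, and on day 7 3.80 in culture 4, 0.0181 in culture 3 and 0 in the others, so that days 3 and 7 overlapped. Cell 234 alone gave 66.8% of the day 7 Atoh1 reads. Acbd7 had 3.05, 3.29 and 4.47 CPM on day 1, 0.989, 38.7 and 3.69 on day 3 and 0.307 to 2.00 on day 7, so that it was the only member read in all 11 cultures. Fewer cells with a transcript and less transcript per cell cannot be told apart in these sums. Most reads of each member lay in the same few co-expressing cells, so the members are not separate from each other in the comparisons of days below.

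**Figure D5:**
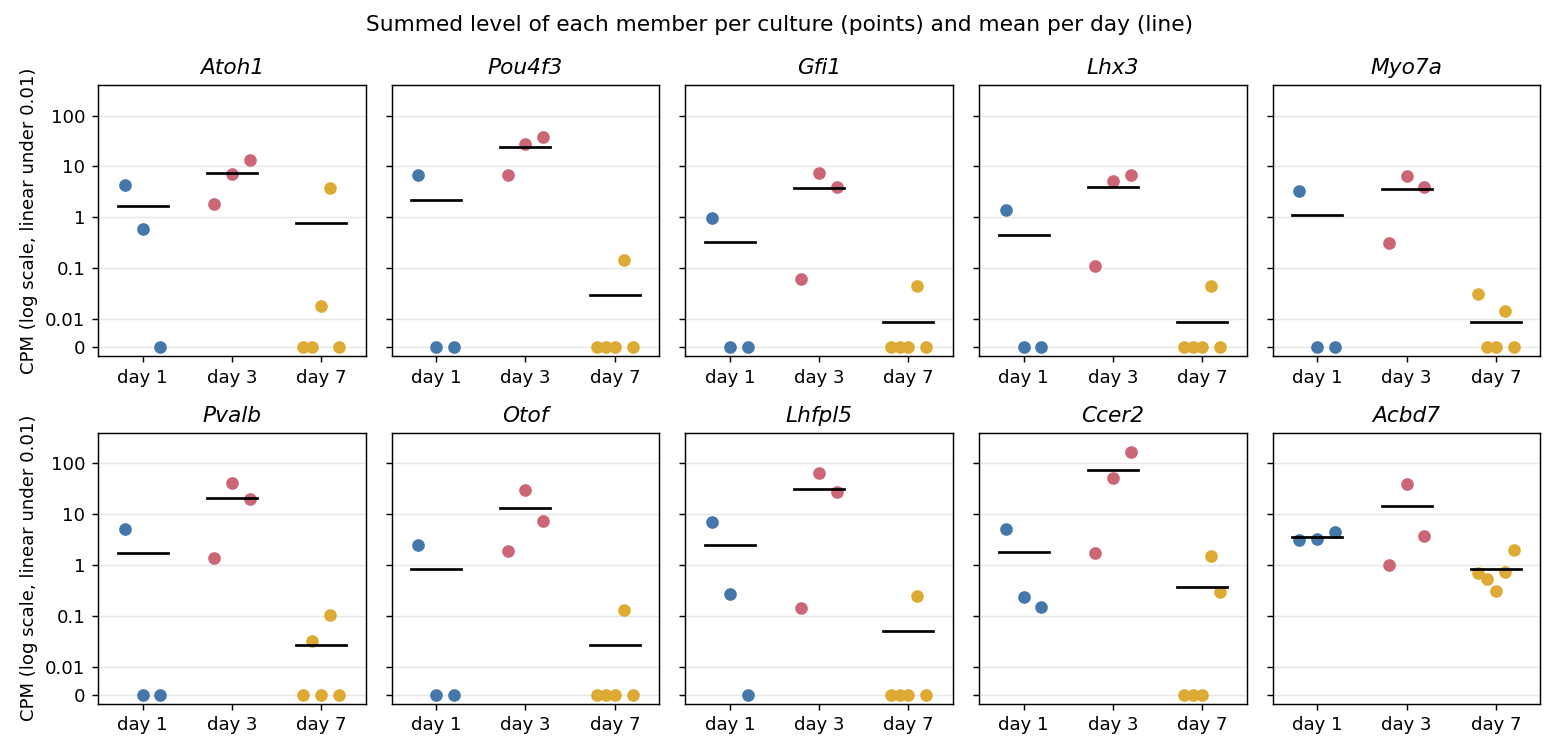
CPM of each of the 10 genes (vertical, log scale, linear under 0.01) in each culture (points, cultures in order of their number) on days 1, 3 and 7, with the mean per day as a line. For 9 genes most day 7 cultures lie at 0 or under 0.1 CPM, and Acbd7 is above 0 in all 11 cultures.

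Between day 3 and day 1 no member was called in edgeR, where 0.0115% of 17466 genes were, and 1 had an unadjusted p under 0.05 (Ccer2, p 0.0146), where 9.26% of all genes did. DESeq2 called none either, where it called 1.47% of all genes. All 10 had a higher fitted level on day 3, with a median log2 fold change of 3.47 against 0.02 over all genes. Pou4f3 alone did not overlap between the cultures of these days, where 18.0% of all genes did not. For Acbd7 the log2 ratio of 2.01 (SE 1.06), at an edgeR adjusted p of 0.623, turned to -0.62 without day 3 culture 2 (adjusted p 0.962), and over its alternatives, DESeq2 among them, the adjusted p ran from 0.463 to 0.962.

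Between day 7 and day 3, 2 of the 10 members were called, both lower on day 7, where 0.968% of all genes were called and 0.784% were called lower. At an unadjusted p under 0.05 it was 9 of the 10 and 11.8% of all genes. Pou4f3 had 10 reads on day 7 and 3748 on day 3, or 0.0294 ± 0.0658 CPM (SD, n = 5) against 23.8 ± 15.6 (n = 3). The log2 ratio in edgeR was -9.30 (SE 1.90, adjusted p 0.0418). Pvalb had 8 and 3207 reads, or 0.0272 ± 0.0447 against 20.7 ± 19.98 CPM, with -9.34 (SE 1.97) at an adjusted p of 0.0465. Neither call held when a single day 3 or day 7 culture was left out, whichever of the 8 it was. The edgeR adjusted p was between 0.00962 and 0.144 for Pou4f3 and between 0.0164 and 0.191 for Pvalb in the alternatives. Which members were called also changed: without day 3 culture 1 they were Lhfpl5, Ccer2 and Acbd7, and without day 7 culture 4 they were Atoh1 and Ccer2. With the deposited table as a term Pou4f3 stayed called and Pvalb did not (adjusted p 0.0418 and 0.0689). DESeq2 called 7 lower, all except Atoh1, Pou4f3 and Otof, where it called 2.36% of all genes lower. The 8 members not called in edgeR had lower fitted levels as well, with adjusted p from 0.0581 for Lhfpl5 to 0.593 for Atoh1. The median log2 fold change of the 10 was -8.34, against 0.01 over all genes. Gfi1 and Lhx3 had 3 reads each on day 7 against 582 and 621 on day 3, which relative to the library totals is 296 and 315.8 times fewer (exact 95% intervals 100.8 to 1439 and 107.6 to 1536). All 3 day 7 reads of each were in culture 4, without which the fitted log2 ratio moved from -8.21 to -10.52 for Gfi1 and from -8.29 to -10.60 for Lhx3, values that then depend on the prior count of the fit. Myo7a had 2 against 560, or 427 times fewer (117.7 to 3536). The intervals of these 3 genes cover counting error of pooled reads only, not the spread between cells or cultures. On day 3, 1 cell held 64.4% of the Gfi1 reads, 49.3% of the Lhx3 reads and 56.4% of the Myo7a reads. Over cultures the edgeR adjusted p was 0.103 for Gfi1, 0.101 for Lhx3 and 0.0964 for Myo7a. Of the 10, 7 did not overlap between the days (Pou4f3, Gfi1, Lhx3, Myo7a, Pvalb, Otof and Ccer2), where 8.13% of all genes did not. Since the members share the same few cells, such counts of members are not separate evidence.

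Between day 7 and day 1, no member was called, where 7.11% of all genes were, and 8 had an unadjusted p under 0.05, where 23.6% of all genes did. DESeq2 called Myo7a (adjusted p 0.00493), where it called 13.1% of all genes. In edgeR Pou4f3 was called without day 1 culture 2 (adjusted p 0.0479) and Atoh1 without day 7 culture 4 (0.0313). All 10 had a lower fitted level on day 7, with a median log2 fold change of -4.92 against 0.00 over all genes. The direction rests on day 1 culture 1: without it 8 of the 10 turned to higher on day 7, Pou4f3 to 3.95 and Atoh1 to 1.26 (edgeR adjusted p 0.509 and 0.837). Acbd7, from 3.60 ± 0.759 CPM on day 1 to 0.854 ± 0.664 on day 7, was the only member whose cultures did not overlap, where 17.8% of all genes did not (log2 ratio -2.06 with an SE of 0.91, edgeR adjusted p 0.189, and 0.0898 to 0.348 in its alternatives, DESeq2 among them).

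The other 53 hair cell genes had smaller median differences between days. With 43 of them tested in edgeR, the median log2 fold change was 0.68 for day 3 against day 1 (33 higher, none called, 0 higher and 1 lower at an unadjusted p under 0.05). It was -0.81 for day 7 against day 1 (32 lower, 3 called lower, where 3.56% of all genes were) and -0.996 for day 7 against day 3 (37 lower, none called, 17 lower and 1 higher at an unadjusted p under 0.05). DESeq2 called 1 of the 43 for day 3 against day 1 (higher), 9 for day 7 against day 1 (2 higher and 7 lower, where 6.93% of all genes were called lower) and 9 for day 7 against day 3 (all lower, where 2.36% were called lower). Without the filter on low counts edgeR called 2 of 49 for day 7 against day 3. The comparisons share cultures, so their medians are not separate evidence. The 3 called genes, named after their values were seen, were lower on day 7: Hes6 with 68.2 ± 9.01 CPM on day 1 and 38.8 ± 6.66 on day 7 (edgeR log2 ratio -0.81, SE 0.21, adjusted p 0.0368), Anxa4, a calcium-binding annexin, with 117 ± 22.9 and 70.5 ± 15.1 CPM (-0.73, SE 0.20, adjusted p 0.0454) and Slc17a8, a vesicular glutamate transporter, with 177 reads on day 1 and 2 on day 7 (adjusted p 0.0191). Their edgeR adjusted p reached 0.136, 0.178 and 0.106 in the alternatives. Hes6 and Anxa4 were read in 61.1% and 78.6% of the cells that were not co-expressing. Between day 7 and day 1 all 6 proliferation genes were called higher (median log2 fold change 2.02) and 5 of the 12 GER genes lower (median of the list -0.83), and their part in the members' levels was not tested.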

How the data were processed

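Per the submitters' processing notes, STAR 2.5.3a, RSEM 1.3.0 and the mm10/GRCm38 build were used. The authors deposited expected counts (estimated reads per gene and cell, not normalised) in 2 tables of 384 cells. These were rounded, and cells with at least 50000 gene reads, at least 1500 genes and at most 20% mitochondrial reads were kept (57 removed). Of the values above 0 of the 10 genes, 3 (all of Ccer2) were not whole. ERCC spike-ins and transgenes stayed out of totals.

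Counts were summed per culture, or per culture and class, and edgeR 4.0.16 under R 4.3.3 gave the tests (quasi-likelihood F-test after filterByExpr and TMM, Benjamini-Hochberg over all genes, threshold 0.05). The day fit had day as its only term, and the class fit had culture as a block, with the 10 genes, which chose the cells, left out of its results and adjustment. On simulated data, 64.4% of 8-fold and 88.2% of 64-fold changes were recovered for day 7 against day 3 (17466 genes). For the class fit it was 26.6% and 86.8% (12984 genes). CPM of a cell is per 1000000 gene reads, and that of a culture is TMM-scaled. Members, lists and tests were chosen with earlier results of these data known. Named genes were the 10, called genes with at least 20 CPM read in at least 50% of the cells of the higher class, the 12 most alike, and from each list the 3 with the smallest adjusted p (ties by raw p) and those at 0. A few genes that the rule names are not reported here. Coordinates are from GENCODE M21 (GRCm38), only where the identifier version matched. Alternatives were DESeq2 1.42.0, RLE factors, no filters, a replicate block, the deposited table as a term, other definitions of a co-expressing cell, thinning and leaving out each culture.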

Additional observations from a re-analysis of the deposited data

Results flagged for a closer look

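In day 7, 1 culture stood far from the other 4 for 8 of the 10 genes and for the share of co-expressing cells. Of 11 groups 9 were marked, all of which except Acbd7 rest on the same culture. For Pou4f3, Gfi1, Lhx3, Otof, Lhfpl5 and the share, the other 4 cultures were at 0. There the outlier test marks any value above 0, however small. The rate of about 1 in 20 that the test has by chance does not hold for such groups, so the number marked is no evidence. Culture 4 was the high one for Atoh1 (3.80 CPM), Pou4f3 (0.147 CPM), Gfi1 and Lhx3 (0.0442 CPM each), Otof (0.132 CPM), Lhfpl5 (0.250 CPM) and Ccer2 (1.53 CPM), and it had the 1 co-expressing cell of the day (1.28% of its cells). For Acbd7 it was culture 5, with 2.00 CPM.

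Reads were also found outside the analysed cells and genes. The 57 cells removed by the filter had 21 reads of the 10 genes in 3 cells, of which 19 were Gfi1 reads in 1 cell of day 7 culture 4 with no other member. The GFP transgene had up to 76 reads in a co-expressing cell and was read in 12 of the 14, and in 90.8% of the other cells. ERT2 and iCre transgene reads (21 and 14) were in cell 224 alone among the 14, and 7.604% and 5.88% of the other cells had reads of them.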

How the results depend on the processing

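Of 941 tested differences recomputed under an alternative, 827 kept their direction and side of the threshold, and of 290 counts and shares 247 stayed close (counts within 1.5 times, shares of reads within 1 SD over cultures), which does not say that the same genes were called. The number of members called was 0 for day 3 against day 1 under every alternative run. For day 7 against day 1 (0) it was 1 with DESeq2 and 1 without the filter on low counts, and 0 to 1 with each culture left out. For day 7 against day 3 (2) it was 7 with DESeq2, 6 without that filter, 1 with the deposited table as a term and 0 to 6 with each culture left out. With the replicate number as a block it was 0. The deviations of same-numbered cultures from the mean of their day had correlations of -0.00918 to 0.0614 over genes. These were not set against differently numbered cultures, so they cannot exclude a link, and the labels do not say whether the numbers pair cultures. The share of co-expressing cells for day 7 against day 1 turned to 0.256 percentage points higher without day 1 culture 1 (-2.57 to 0.256 over left-out cultures).

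Genes called between co-expressing and other cells (3) were 1485 with DESeq2, 5 with RLE factors, 450 with no replicate block (no culture term), 36 in cells with at least 100 member reads, and 1 to 30 with each culture left out, 30 being without day 7 culture 4 and its single cell. The causes were not tested. With each culture left out, the log2 ratio of day 7 to day 1 ran from -7.81 to 1.26 for Atoh1, -9.78 to 3.95 for Pou4f3, -7.03 to 2.38 for Gfi1, -7.50 to 2.38 for Lhx3, -7.37 to 2.13 for Myo7a, -7.79 to 3.70 for Pvalb, -8.35 to 3.77 for Otof and -4.23 to 0.90 for Ccer2, the highest being without day 1 culture 1. For Acbd7 on day 3 against day 1 it was -0.62 to 2.54, the lowest without day 3 culture 2. Birc5, 0.49 in co-expressing cells, was -1.996 with at least 4 members and -3.42 with at least 100 member reads. Hey2 was 0.31 with at least 2 members, and Egr2 0.45 and Gjb2 0.012 with no replicate block. The median share of reads inside ran from 96.5% to 98.9%. The 5 cultures with co-expressing cells had 1 to 5 of them, and thinning to 200000 reads lowered their number from 14 to 8.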

Other observations

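Cell numbers of the labels lay close together for several co-expressing cells. In day 1 culture 1 they were 168, 171 and 216, in day 3 culture 2 556, 598 and 603, and in day 3 culture 3 686, 715, 757, 761 and 768. Which numbers came from the same plate or organoid is not given in the sources used here. Among cells short of the definition, cell 535 of day 1 culture 2 had 100 reads of Calb2, 702 of Hes6 and 229 of Tmem255b beside Atoh1 at 37, Lhfpl5 at 17 and Acbd7 at 3, and its other hair cell genes summed to 5228 CPM, within the range of the 10 co-expressing cells with at least 100 member reads.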
